A study of Mus musculus with 12 samples.

Results

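Cathepsins are the proteases that degrade protein inside the lysosome, and cystatin C (Cst3) is a secreted inhibitor of the cysteine cathepsins. Chromatin accessibility around 9 cathepsin genes (Ctsa, Ctsb, Ctsc, Ctsd, Ctsh, Ctsk, Ctsl, Ctss and Ctsz) and Cst3 was taken from ATAC-seq of mouse forebrain. ATAC-seq counts the places where a transposase can insert adapters into DNA, so a peak marks open chromatin. Every peak whose nearest gene in the deposited tables was 1 of these 10 genes was a member, which gave 153 of 281974 peaks. Of these, 97 were among the 91770 microglia peaks, 34 among the 107627 of NeuN+ nuclei and 22 among the 82577 of Olig2+ nuclei. Peaks within 1000 bp of the start site given in the files were treated as start-site peaks, and the others as distal peaks.

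The mice were C57BL/6, 4 months old, and either wild type (WT) or SgshKO. Sgsh encodes a lysosomal sulfatase that removes sulfate from heparan sulfate. The sources used here state neither the kind of Sgsh allele nor the sex of the mice or their number per library. Microglia were sorted alive as CD11b+, CX3CR1+ cells with low CD45, whereas neuronal nuclei (NeuN+, negative for OLIG2 and PU.1) and oligodendrocyte-lineage nuclei (OLIG2+, negative for NeuN and PU.1) were sorted after light formaldehyde fixation. Sort and preparation therefore cannot be told apart. Each of the 6 groups held 2 libraries, and nothing says that they came from separate animals, so the p-values measure the spread between these libraries only.

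The microglia libraries held 10771659 to 11804222 tags, the NeuN+ libraries 14326703 to 17706971 and the Olig2+ libraries 15044194 to 19555924. Within peaks lay 48.7% to 67.4%, 21.2% to 26.7% and 30.9% to 31.8% of these tags. Values are tags per peak scaled to a library total of 10000000. The sorts carried their defining markers: start-site peaks were present for 7 of 8 microglia genes in microglia, 8 of 8 neuronal genes in NeuN+ nuclei and 8 of 8 oligodendrocyte genes in Olig2+ nuclei, while of the microglia genes only Olfml3 had one in either nuclei sort. In microglia, 4 of 8 blood and border myeloid markers (Itga4, Mrc1, Pf4 and S100a8) had a start-site peak. Their summed level was 208 and 159 tags in the WT libraries, against 272 and 256 in those of SgshKO, and its part in the results was not tested. Start-site peaks of oligodendrocyte (5 of 8 genes), endothelial (3 of 6), astrocyte (3 of 6) and neuronal (2 of 8) markers were also listed in microglia, with summed levels of 308 to 418, 197 to 283, 75.2 to 125 and 114 to 161 tags over the 4 libraries. Olig2+ nuclei held start-site peaks of 5 of 8 neuronal genes (379 to 454 tags), and NeuN+ nuclei of 4 of 8 oligodendrocyte genes (85.9 to 179 tags). Astrocyte, endothelial and blood and border myeloid markers had 1 gene each with such a peak in either nuclei sort. A change in the mix of sorted cells and a change within cells cannot be told apart in such libraries.

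Most of these enzymes reach the lysosome as inactive precursors tagged with mannose 6-phosphate and mature in its acid interior. Ctsd is an aspartic endopeptidase. Ctsb, Ctsl, Ctss and Ctsk are cysteine endopeptidases, of which Ctss is typical of antigen-presenting cells and Ctsk of bone-resorbing osteoclasts. Ctsh, Ctsc and Ctsz trim the ends of peptides, and Ctsa is a serine carboxypeptidase that also protects lysosomal beta-galactosidase and neuraminidase. In the brain, microglia are rich in cathepsins and Cst3, and the transcription factors TFEB, TFE3 and MITF bind an E-box (CACGTG) in the promoters of many lysosomal genes.

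Promoter sequences were read from RefSeq (GRCm38.p6), in windows from 250 bases before to 50 bases after each start, and 8 of the 10 genes had one. The stretches shown belong to genes whose start-site peaks the results turn on, each written 5′ to 3′ on the gene's own strand with matches to a searched motif in capitals. For Ctsd (chr7:142387828-142388077, minus strand) the capitals mark the E-boxes with the flanking bases of the longer form TCACGTG, for Ctsl (chr13:64370739-64370768, minus strand, 30 bases around its match) the CACGTG alone, and for Ctss (chr3:95526536-95526791, plus strand) the reverse complement of GAGGAAG, a motif of the PU.1 type. Cst3 (chr2:148875513-148875762, minus strand) and Ctsz (chr2:174439040-174439289, minus strand) held no match.
Ctsd: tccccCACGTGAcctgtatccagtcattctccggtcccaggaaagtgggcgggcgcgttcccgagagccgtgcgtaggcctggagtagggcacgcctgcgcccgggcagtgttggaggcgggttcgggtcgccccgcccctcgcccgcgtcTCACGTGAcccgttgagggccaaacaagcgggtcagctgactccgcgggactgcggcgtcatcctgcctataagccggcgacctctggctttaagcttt
Ctsl: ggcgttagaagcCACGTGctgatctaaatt
Ctss: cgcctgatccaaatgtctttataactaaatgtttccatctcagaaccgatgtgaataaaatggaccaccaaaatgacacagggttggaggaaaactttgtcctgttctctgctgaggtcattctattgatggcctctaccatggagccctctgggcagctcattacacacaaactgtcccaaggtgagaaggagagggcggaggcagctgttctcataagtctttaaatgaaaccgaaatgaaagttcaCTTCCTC
Cst3: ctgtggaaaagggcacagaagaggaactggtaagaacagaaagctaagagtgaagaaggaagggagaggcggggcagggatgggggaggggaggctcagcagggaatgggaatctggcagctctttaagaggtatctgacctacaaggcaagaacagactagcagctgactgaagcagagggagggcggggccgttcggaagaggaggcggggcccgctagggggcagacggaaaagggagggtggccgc
Ctsz: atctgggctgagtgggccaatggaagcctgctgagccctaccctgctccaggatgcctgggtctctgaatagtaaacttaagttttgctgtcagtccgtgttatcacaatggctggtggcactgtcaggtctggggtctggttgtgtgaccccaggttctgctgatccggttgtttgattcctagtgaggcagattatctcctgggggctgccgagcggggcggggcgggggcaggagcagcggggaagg

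The search covered both strands. CACGTG was present in 7.15% of 32851 RefSeq windows of the same length, its longer form TCACGTG, which contains it, in 3.77%, GAGGAAG in 13.6% and the AP-1 motif TGANTCA in 7.81%. In the Ctsd window CACGTG began 245 and 98 bases before the start. The nearer E-box lay inside the strongest Ctsd start-site peak of all 3 sorts, and the farther one inside that of NeuN+ and Olig2+ nuclei but outside the more downstream microglia peak. In Ctsl the match began 236 bases upstream, outside the strongest start-site peak of every sort. By its coordinates it lies inside the weak NeuN+ peak 166 bp upstream (64370583 to 64370790). A second Ctsa window had 2 matches to CACGTG, both outside the strongest Ctsa peak and, by their coordinates, inside the weaker NeuN+ peak 145 bp downstream (164833750 to 164834086). GAGGAAG matched in the windows of Ctsc (2 matches) and Ctss (1), inside their microglia start-site peaks, and in that of Ctsk (2), which had no start-site peak in microglia. TGANTCA matched in none of the 9 windows. These matches describe the letters only.

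The sorts differed first in how many peaks the genes had. In microglia, Ctsd had 23 peaks, Ctsb 15, Ctsc 13, Ctsh 10, Ctsz 9, Cst3 8, Ctsl 7, Ctss 6, and Ctsa and Ctsk 3 each. Of the 81 distal microglia peaks, 74 (91.4%) overlapped no peak of either nuclei table, against 72.0% of all distal microglia peaks. Among the 16 start-site peaks this share was 43.8%, against 26.2% of all start-site peaks. NeuN+ nuclei had 14 start-site and 20 distal member peaks, and Olig2+ nuclei 9 and 13. No start-site peak was listed for Ctsc, Ctsh or Ctss in either nuclei sort, for Ctsk in microglia and Olig2+ nuclei, and no peak at all for Ctsc in Olig2+ nuclei. The summed tags of all member peaks were 7554 and 6709 in WT microglia over 24777 bp of peaks, 658 and 665 in WT NeuN+ nuclei over 8685 bp, and 855 and 829 in WT Olig2+ nuclei over 5736 bp. Per kb of peak this was 288, 76.2 and 147 tags. These sums cover regions called separately in each sort.

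Levels of the strongest start-site peak of each gene were ordered per kb of peak in WT. In microglia Ctsc came first (1131 and 1069 tags per kb), followed by Ctsh (1078 and 936) and Cst3 (1068 and 904), and neighbours among these 3 overlapped. Ctsl, Ctsd and Ctsa came next at means of 703, 630.2 and 545 tags per kb, again with overlapping neighbours. Ctsz (434), Ctsb (357) and Ctss (225) were lowest, and each lay apart from the next. In Olig2+ nuclei Ctsd stood highest, at 1227 and 1094 tags per kb, above Ctsl (541 and 446), Ctsb, Cst3, Ctsa and Ctsz (68.0 and 58.7) with no overlap between neighbours. In NeuN+ nuclei Ctsl (470 and 414) preceded Ctsd and Cst3 (421 and 304), which overlapped each other. The higher Cst3 library also lay above the lower Ctsl library. Ctsb and Ctsa came next, then Ctsz and Ctsk, which overlapped at means of 52.0 and 42.6.

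**Figure D1:**
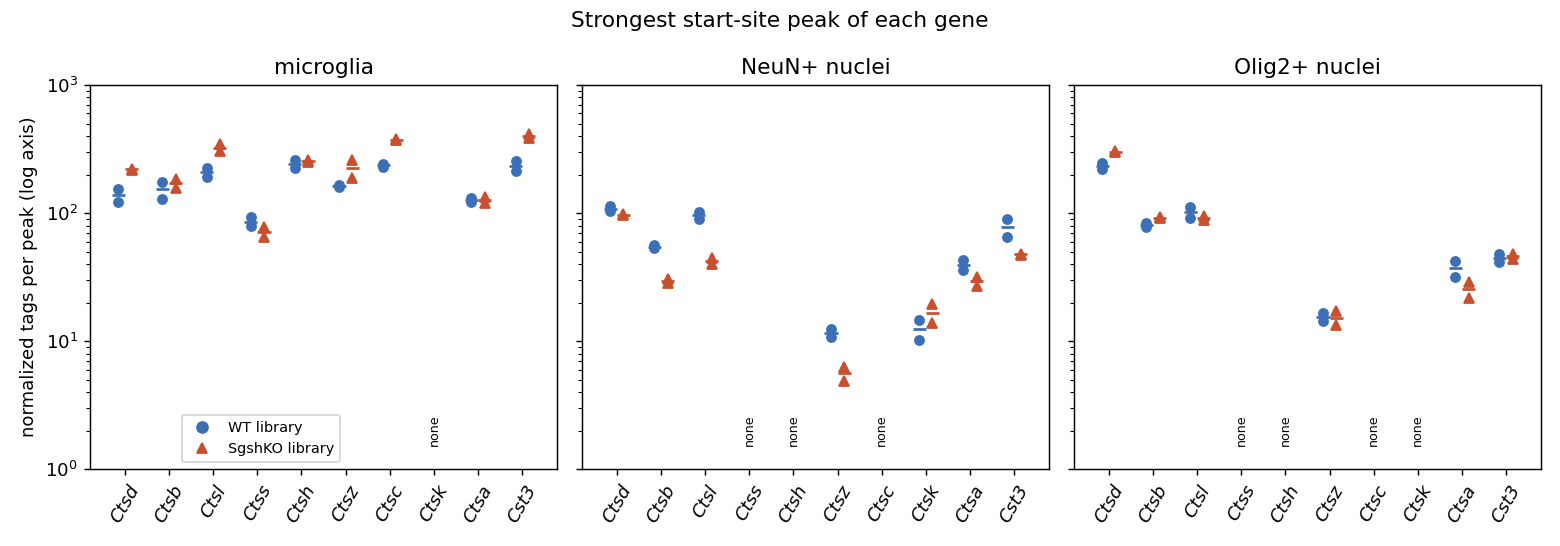
Normalized tags (log axis) of the strongest start-site peak of each gene, by sort. Points are single libraries (circles WT, triangles SgshKO), bars are means of 2, and "none" marks a gene without a start-site peak; Ctsd is the highest gene in Olig2+ nuclei, and in NeuN+ nuclei both SgshKO points of Ctsl, Ctsb, Cst3 and Ctsz lie below both WT points.

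Loss of Sgsh was compared with WT within each sort by limma on log2(tags + 1), with Benjamini-Hochberg adjustment over the whole table and a call at an adjusted p under 0.05. In microglia 5 of 97 member peaks were called (5.15%), 4 of them higher with loss of Sgsh and 1 lower, against 7.37% of all microglia peaks (5.05% higher, 2.33% lower). The members' share is near this background. All 5 were distal (5 of 81, 6.17%, against 6.52% of all distal peaks), and none of the 16 start-site peaks was called (9.8% of all start-site peaks were). The median log2 change was 0.31 over the start-site members and 0.18 over the distal members, against 0.03 and -0.12 over all start-site and distal peaks. After in-peak scaling the member medians were 0.11 and -0.02, with -0.28 over all microglia peaks. After quantile normalization they were 0.09 and 0.08, with -0.06 over all microglia peaks. The 4 peaks that rose belonged to Ctsd, Ctsh, Ctsl and Ctsz, and the 1 that fell to Ctsd.

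Ctsd, the main aspartic protease of the lysosome, had a chain of peaks in microglia, some of them strong, reaching 20261 bp upstream of its start on chromosome 7. The peak 2613 bp upstream (142390372 to 142390595, intergenic) rose from 66.5 and 56.8 tags in the WT libraries to 160.2 and 117 in those of SgshKO, by 1.14 ± 0.31 (SE) on the log2 scale (adjusted p = 0.0184). Both SgshKO libraries lay above both WT libraries. The farthest peak, 20261 bp upstream (142408013 to 142408250), fell from 19.9 and 16.1 to 6.06 and 1.86 tags, a log2 change of -2.07 ± 0.53 (adjusted p = 0.0111). It is thinly read, and it was not called by DESeq2.

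The other strong Ctsd peaks were not called. The strongest, 15891 bp upstream, had 350.0 and 367 tags in WT and 674 and 435 in SgshKO (log2 change 0.60 ± 0.26, adjusted p = 0.158). Peaks 11607, 10259 and 6567 bp upstream had WT values between 236 and 382 tags and log2 changes of 0.42, 0.63 and -0.13. SgshKO replicate 1 was the higher SgshKO library in all 4 of these peaks. At the start site (142387758 to 142387976) the WT libraries had 121 and 155 tags and the SgshKO libraries 216 and 222, without overlap (0.67 ± 0.28, adjusted p = 0.140). In introns 1 to 4, peaks 1527 to 6485 bp downstream had log2 changes of 0.32 to 0.85, none of them called. Positive changes were found in 44.7% of all microglia peaks. Of the 23 Ctsd peaks together 19 had positive changes, 18 after scaling to the tags in peaks or quantile normalization. Their sum was 2135 and 2157 tags in WT and 3491 and 2448 in SgshKO (358 and 495 tags per kb on average), again highest in SgshKO replicate 1, the library with the largest share of its tags in peaks (67.4%).

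**Figure D2:**
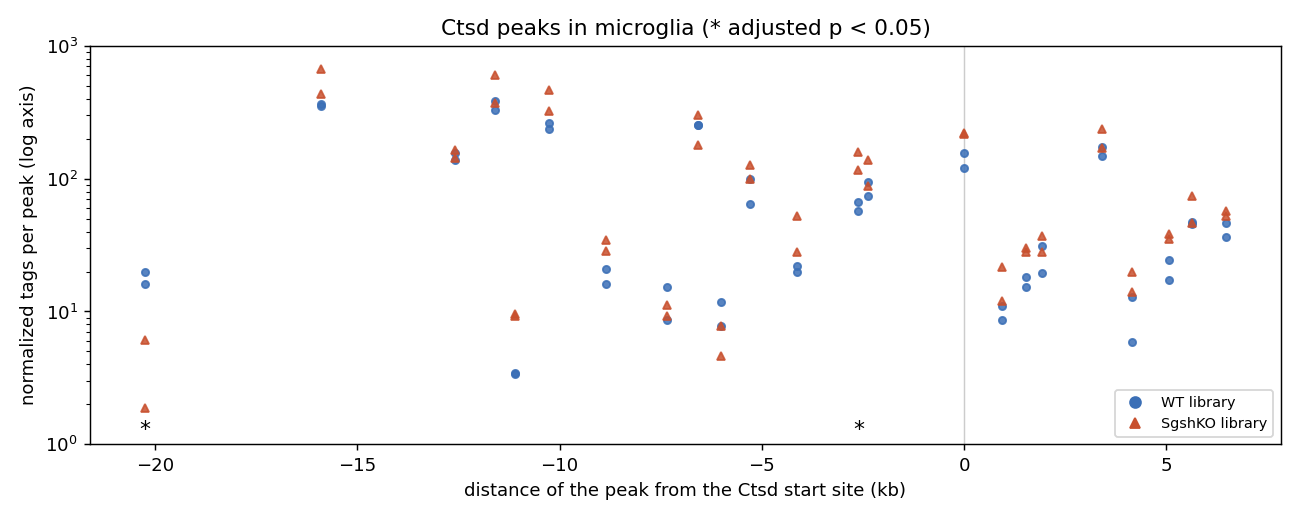
Normalized tags (log axis) of the 23 Ctsd peaks in microglia against distance from the start site in kb, negative upstream. Circles are WT and triangles SgshKO libraries, 2 each, and asterisks mark the 2 called peaks, of which that 2613 bp upstream is higher and that 20261 bp upstream lower in SgshKO.

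Among the cysteine endopeptidases, Ctsl had the 1 called peak. A peak 27724 bp upstream (chromosome 13, 64398131 to 64398357, intergenic) rose from 12.1 and 13.6 to 54.5 and 42.7 tags, 3.79 times the WT mean (log2 change 1.84 ± 0.41, adjusted p = 0.00372). At the Ctsl start site (64370252 to 64370547, 5′ UTR) the libraries had 225 and 191 tags in WT and 347 and 303 in SgshKO, a change of 0.64 ± 0.26 that was not called (adjusted p = 0.137). The groups did not overlap in either peak. Of the 7 Ctsl peaks 6 had positive changes, against 44.7% of all microglia peaks.

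Ctsb, with 9 of its 15 microglia peaks in intron 1, had no called peak. Its start-site peak (chromosome 14, 63122375 to 63122802, intron 1) had 176 and 130 tags in WT and 185 and 156 in SgshKO, which overlap (0.17 ± 0.29, adjusted p = 0.784). The strongest distal peak, 6746 bp into the gene in the same intron, had 258 and 232 against 301 and 266 tags (0.21 ± 0.26). Both changes turned negative after quantile normalization. Peaks 1986, 8400 and 10098 bp downstream had log2 changes of 0.95, 0.89 and 0.92 at adjusted p of 0.231, 0.183 and 0.175.

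No Ctss peak was called. All 6 had negative changes, from -0.74 to -0.07, and all 6 stayed negative under each of the 5 other scalings and tools. Over all microglia peaks 44.7% of changes were positive. The median of the 5 distal Ctss peaks was -0.18, against -0.12 over all distal microglia peaks. After in-peak scaling it was -0.38, with -0.28 over all microglia peaks. The strongest Ctss peak, in intron 2 (chromosome 3, 95529933 to 95530165), had 315 and 262 tags in WT and 267 and 159 in SgshKO (-0.48 ± 0.28, adjusted p = 0.319). Its start-site peak (95526611 to 95526990), which holds the GAGGAAG match, had 92.5 and 78.8 against 77.9 and 65.0 tags (-0.26 ± 0.32, adjusted p = 0.685). Ctsk, its neighbour on chromosome 3, had 3 distal peaks in microglia. The strongest of these, 12815 bp downstream of the Ctsk start and therefore between the 2 genes, had 42.4 and 46.6 tags in WT and 86.6 and 49.2 in SgshKO (0.55 ± 0.35, adjusted p = 0.383). Another, 4683 bp upstream of Ctsk, lies in exon 20 of Arnt, so the nearest-start label of a peak is not a statement of the gene it acts on.

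The peptide-trimming cathepsins gave the remaining calls. For Ctsh, an aminopeptidase, a peak 11223 bp upstream (chromosome 9, 90042931 to 90043157) rose from 33.7 and 34.7 to 98.7 and 66.8 tags (1.22 ± 0.35, adjusted p = 0.0244). The Ctsh start-site peak was not called, with 258 and 224 tags in WT and 261 and 248.8 in SgshKO (0.09 ± 0.26, adjusted p = 0.890), and the value turned negative after scaling to tags in peaks and after quantile normalization. Its strongest distal peak, 20166 bp upstream, had 258 and 175 against 339 and 209 tags, which overlap. A peak in intron 1, 5790 bp downstream, had 37.2 and 38.1 against 76.2 and 71.5 tags and was not called (0.95 ± 0.34, adjusted p = 0.0832). Farther upstream, 3 peaks assigned to Ctsh lay in introns 23 and 26 of Rasgrf1, with changes from -0.09 to 0.25.

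Ctsz, a carboxypeptidase, had its called peak in intron 2, 4933 bp downstream of the start (chromosome 2, 174433990 to 174434223). It rose from 13.8 and 14.4 to 51.1 and 30.6 tags, 2.89 times the WT mean (1.43 ± 0.42, adjusted p = 0.0307). This call was lost without SgshKO replicate 1 (1.07, adjusted p = 0.0653) and without either WT library (1.40 and 1.45, adjusted p = 0.392 and 0.504). Along the same intron, peaks at 2025 and 2511 bp had log2 changes of 1.10 ± 0.36 and 0.94 ± 0.32, just short of a call at adjusted p of 0.0560 and 0.0594. At 2025 bp the libraries had 28.5 and 27.1 tags in WT and 63.2 and 58.5 in SgshKO. The strongest intron 2 peak, at 1227 bp, was not called (236 and 236 against 273 and 264 tags) and its change of 0.18 turned negative after in-peak scaling and quantile normalization. In all 6 distal Ctsz peaks both SgshKO libraries lay above both WT libraries, whereas 48.8% of all distal microglia peaks had groups that did not overlap in either direction. At the start site (174438726 to 174439103) the values were 167 and 161 against 189 and 262 (0.44 ± 0.28, adjusted p = 0.370).

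Ctsc, which activates granule serine proteases, had its strongest peak at the start site (chromosome 7, 88277838 to 88278051). There the values were 242 and 229 tags in WT and 377 and 371 in SgshKO, without overlap (0.67 ± 0.26, adjusted p = 0.108). Of its 11 distal peaks 4 had positive and 7 negative changes, and 3 lie in introns of Grm5, more than 180 kb away. For Ctsa the start-site peak was not called, at 132 and 123 against 133 and 121 tags (-0.01 ± 0.29, adjusted p = 0.994), and its 2 weaker peaks in introns 3 and 5 had changes of -0.87 and -0.90, not called.

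Cst3, the inhibitor, showed opposite signs at its start and upstream. The start-site peak (chromosome 2, 148875498 to 148875734) had 253 and 214 tags in WT and 412 and 388 in SgshKO, 1.71 times the WT mean (0.78 ± 0.26, adjusted p = 0.0578). It missed the threshold here but passed it by edgeR (adjusted p = 0.00562), DESeq2 (0.0148) and with median-of-ratios scaling (0.00855). After quantile normalization the change was 0.31 (adjusted p = 0.226). All 7 distal peaks, 1684 to 27064 bp upstream in intergenic DNA, had negative changes, from -0.48 to -1.14, and none was called. The lowest adjusted p among them was 0.0791, for the peak 9444 bp upstream, with 41.5 and 41.5 tags in WT and 22.5 and 14.9 in SgshKO. The strongest, 2093 bp upstream, had 95.1 and 103 against 67.5 and 46.4 tags (-0.81 ± 0.33, adjusted p = 0.124). Over all distal microglia peaks 42.1% of changes were positive. The Cst3 signs, positive at the start and negative in all 7 distal peaks, were the same under each of the 5 other scalings and tools. In 5 of the 7 the groups did not overlap, as in 48.8% of all distal microglia peaks. The sum of the distal peaks was 352 and 299.9 tags in WT and 232 and 143 in SgshKO.

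**Figure D3:**
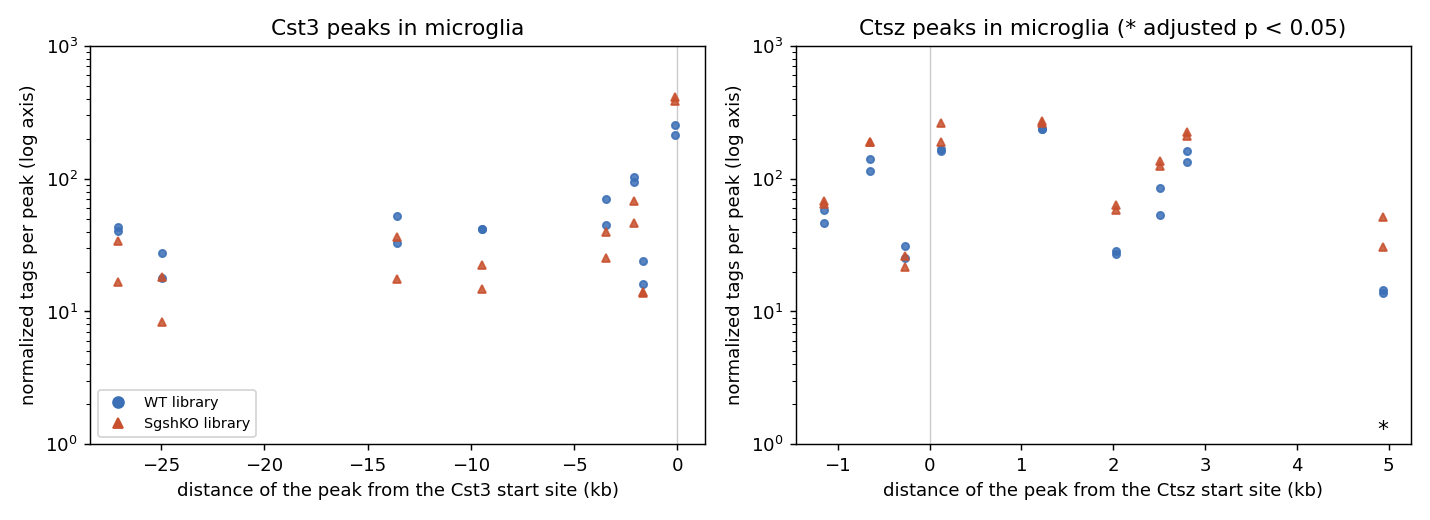
Normalized tags (log axis) of the 8 Cst3 peaks (left) and the 9 Ctsz peaks (right) in microglia against distance from the start site in kb. Circles are WT and triangles SgshKO libraries, 2 each; at Cst3 both SgshKO points lie above WT at the start and both lie below WT in 5 of the 7 upstream peaks, and the asterisk marks the called Ctsz peak at 4.9 kb.

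In 57 of the 97 microglia members the genotypes did not overlap, 39 higher and 18 lower, against 51.1% of all microglia peaks. The 5 calls were lost without either WT library: no member was called, and 1159 and 557 peaks were called in the whole table without WT replicate 1 and 2. More members, and more peaks of the whole table, were called without SgshKO replicate 1 or 2. By edgeR 19 members were called (16 higher, 3 lower), and 14132 of the 91770 microglia peaks. After in-peak scaling the 12 member calls split into 6 higher and 6 lower, and 14522 peaks were called in the whole table. The main fit called 6765 peaks, so calls in the whole table rose along with those of the members.

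In NeuN+ nuclei 8 of 34 member peaks were called (23.5%), 3 higher and 5 lower, against 29.8% of all NeuN+ peaks (10.2% higher, 19.6% lower). All 5 that fell were start-site peaks, of 14 in all (35.7%), and 44.9% of all NeuN+ start-site peaks fell, so the members' share is near or under the background. The median log2 change was -0.23 over the start-site members and -0.53 over all start-site peaks. Beside this, the summed start-site level of 8 neuronal markers was 983 and 906 tags in WT, against 507 and 523 in SgshKO. Each other marker set also lay lower in this sort. Oligodendrocyte markers (4 of 8 genes) had 179 and 155 against 85.9 and 88.3 tags, and the microglia marker Olfml3 62.9 and 61.6 against 46.1 and 36.2. Peaks took up 26.7% and 25.9% of WT tags, against 21.5% and 21.2% of SgshKO tags. The part of these levels and shares in the member values was not tested.

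The Ctsl fall had the lowest adjusted p of the members. Its start-site peak (64370291 to 64370507) had 102 and 89.8 tags in WT and 39.8 and 44.4 in SgshKO, a log2 change of -1.17 ± 0.15 (adjusted p = 2.88e-05). A weak peak 166 bp upstream of it, at 3.97 and 2.26 tags, rose to 9.07 and 8.25 (1.26 ± 0.38, adjusted p = 0.0179). Ctsb fell at its start (63122338 to 63122558) from 56.1 and 53.1 to 30.7 and 28.6 tags (-0.86 ± 0.18, adjusted p = 0.00175). Cst3 fell there too (148875433 to 148875646), from 90.1 and 65.0 to 47.5 and 48.3 tags (-0.67 ± 0.17, adjusted p = 0.00663), and more weakly read in intron 1, 369 bp downstream, from 11.9 and 9.60 to 2.09 and 4.44 (-1.51 ± 0.38, adjusted p = 0.00658). The Ctsz start-site peak fell from 12.5 and 10.7 to 4.89 and 6.35 tags (-0.93 ± 0.33, adjusted p = 0.0382). In the strongest start-site peaks of Ctsl, Ctsb, Cst3, Ctsz, Ctsd and Ctsa no SgshKO library reached a WT library, and 77.8% of all NeuN+ start-site peaks had groups that did not overlap in either direction.

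The calls of the strongest Ctsl and Ctsb start-site peaks held under each of the 3 other scalings and by edgeR (that of Ctsb was lost by DESeq2). Those of Cst3 (start site) and Ctsz did not. Cst3 had a change of -0.37 after in-peak scaling and -0.24 after quantile normalization. Ctsz was not called under any of the 3 scalings, by edgeR or by DESeq2. DESeq2 also lost the calls of the weak Ctsl peak 166 bp upstream (adjusted p = 0.258) and the Cst3 peak 369 bp downstream (adjusted p = 0.334). Without WT replicate 1 or 2 the log2 changes of that Ctsl peak were 1.57 and 0.96, and those of that Cst3 peak -1.37 and -1.65. The median change of all NeuN+ peaks moved from -0.23 to -0.03 with median-of-ratios scaling, and that of the start-site members from -0.23 to -0.04. Without either SgshKO library no NeuN+ peak at all was called. At Ctsd, the start-site peak that spans both E-boxes (142387862 to 142388139) had 104 and 113 tags in WT and 97.7 and 95.9 in SgshKO (-0.16 ± 0.12, adjusted p = 0.305). Its sign turned positive under each other scaling and tool, to 0.38 after quantile normalization (adjusted p = 0.0483). For Ctsa the start-site peak had 35.7 and 42.9 against 27.2 and 31.8 tags (-0.40 ± 0.20, adjusted p = 0.126). Ctsk, with 3 weak start-site peaks in this sort, was highest 462 bp downstream, at 14.7 and 10.2 against 19.5 and 14.0 tags.

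Of the 20 distal NeuN+ members 2 were called, both higher (12.6% of all distal peaks were), both assigned to Ctsc and both thinly read. The peak 68199 bp downstream of the Ctsc start (88346173 to 88346396) rose from 1.13 and 5.08 to 18.9 and 14.0 tags (2.26 ± 0.42, adjusted p = 0.000837), and that 77988 bp upstream rose from 3.40 and 5.65 to 13.3 and 19.1 (1.64 ± 0.34, adjusted p = 0.00177). Both are intergenic. A further 5 Ctsc peaks lay in introns 4, 6 and 9 of Grm5, a glutamate receptor gene. The most strongly read distal member was assigned to Ctsh and lies in intron 25 of Rasgrf1, with 18.1 and 19.2 tags in WT and 25.1 and 23.5 in SgshKO (0.36 ± 0.23, adjusted p = 0.228). It was not called, and its groups did not overlap, as in 65.9% of all distal NeuN+ peaks.

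In Olig2+ nuclei 5 of 22 member peaks were called (22.7%), 2 higher and 3 lower, against 19.8% of all Olig2+ peaks (8.17% higher, 11.7% lower), a share near the background. Beside this, the summed start-site level of 8 oligodendrocyte markers was 3282 and 3236 tags in WT, against 2619 and 2636 in SgshKO. That of the neuronal markers (5 of 8 genes) went the other way, from 379 and 415 to 454 and 435 tags. The part of either in the member values was not tested. At the start sites, 1 of 9 was called, higher, where 12.7% of all start-site peaks were called higher. That peak was the one of Ctsd. Over both E-boxes (142387893 to 142388094) it rose from 248 and 221 to 303 and 299 tags, 1.28 times the WT mean (0.36 ± 0.08, adjusted p = 0.00264). The rise was called under each other scaling and tool and was lost only without WT replicate 2 (0.28). The start-site peaks of Ctsb (77.3 and 83.9 against 91.0 and 93.1 tags), Ctsl (111 and 91.5 against 87.9 and 94.4) and Cst3 (41.5 and 47.6 against 48.0 and 43.9) were not called, with changes of 0.19, -0.14 and 0.05. Those of Ctsz and Ctsa had changes of -0.03 and -0.52, the last at adjusted p = 0.0857.

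Of the 13 distal Olig2+ members 4 were called, where 19.7% of all distal peaks were. DESeq2 gave none of these 4 an adjusted p. Cst3 had 1 in each direction: the peak 14788 bp upstream (148890166 to 148890434) rose from 4.15 and 9.20 to 15.4 and 17.95 tags (1.28 ± 0.34, adjusted p = 0.00766), and that 27090 bp upstream fell from 10.9 and 7.16 to 3.07 and 3.32 (-1.23 ± 0.38, adjusted p = 0.0213). The first call was lost without WT replicate 1 (0.79), and the second without either WT library and after quantile normalization (-0.99, adjusted p = 0.0715). The peak 27090 bp upstream overlaps the microglia peak 27064 bp upstream, which had 40.6 and 43.2 against 33.8 and 16.7 tags. A pair of peaks assigned to Ctsh, 46399 and 45745 bp upstream in intron 20 of Rasgrf1, fell by 1.29 ± 0.37 and 1.94 ± 0.44 on the log2 scale (adjusted p = 0.0151 and 0.00216), and both calls were lost without either WT library, the first also without SgshKO replicate 2. Between 0.66 and 10.9 tags were read in them. A stronger peak beside them, 46838 bp upstream, was not called, with 47.2 and 35.3 against 46.1 and 43.2 tags. The strongest distal member in this sort was in intron 4 of Ctsk, 3269 bp downstream (chromosome 3, 95502370 to 95502588), at 101 and 122 tags in WT and 106 and 101 in SgshKO (-0.10 ± 0.13), with no start-site peak of Ctsk listed and no overlapping peak in the other sorts.

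**Figure D4:**
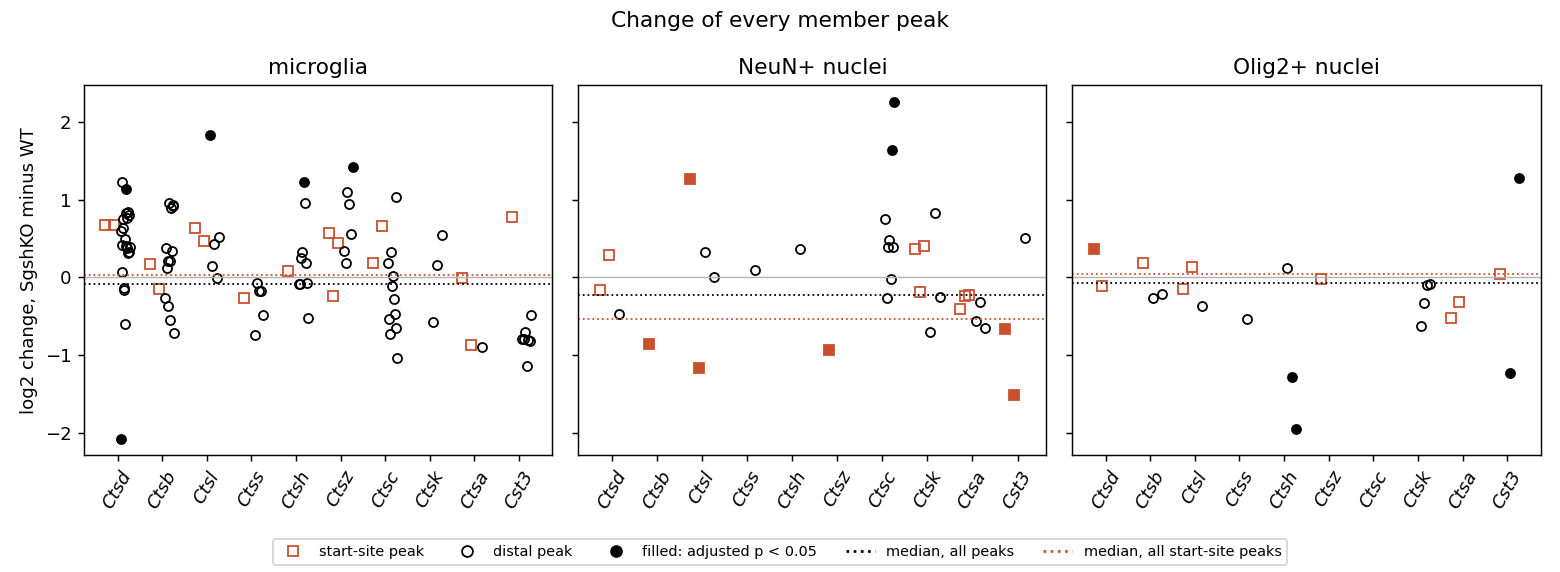
Log2 change (SgshKO minus WT) of all 153 member peaks by gene and sort; squares are start-site and circles distal peaks, filled where the adjusted p is under 0.05, and dotted lines are the medians of all peaks (black) and of all start-site peaks (red) of the sort. The filled symbols number 5 for microglia, 8 for NeuN+ and 5 for Olig2+ nuclei, and the 7 distal Cst3 peaks in microglia all lie below 0.

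Whether the sorts differed was tested on the 16761 peaks that matched singly across the tables, each covering at least 50% of its partner, in 1 limma model of the 12 libraries. This set held 7 member peaks: the start-site peaks of Ctsl, Cst3, Ctsz and Ctsa, a second Ctsa peak about 0.9 kb downstream, and the distal peaks upstream of Ctsk (in Arnt) and Ctss. In WT, 5 of the 7 were higher in microglia than in NeuN+ nuclei, where 46.5% of shared peaks were. The differences were 3.71 for Ctsz, 1.68 for Ctsa, 1.59 for Cst3, 1.11 for Ctsl and 0.86 for the second Ctsa peak on the log2 scale, against a median of 0.47 over all shared peaks. The last was lost under each of the other scalings, by edgeR, with the replicate block (0.63, adjusted p = 0.220), and without WT replicate 1 of microglia or either WT library of NeuN+ nuclei, and was -0.07 after in-peak scaling. Against Olig2+ nuclei the same 5 were higher in microglia, where 42.7% of shared peaks were: Ctsz by 3.33, Cst3 by 2.36, Ctsa by 1.77 and 1.17 and Ctsl by 1.03, with a median of 0.35. Ctsl differed by 0.13 and 0.33 in these contrasts after in-peak scaling and was then not called. Against Olig2+ nuclei the second Ctsa peak was not called after in-peak scaling (0.51), after quantile normalization (0.59) or without WT replicate 1 of microglia (0.98). Between the nuclei sorts Cst3 was the 1 member called, higher in NeuN+ nuclei by 0.77 ± 0.17 (adjusted p = 0.000754), where 19.1% of shared peaks were higher. These contrasts compare tags per peak over intervals of unlike width. The Ctsz peak spans 378 bp in microglia, 223 bp in NeuN+ and 244 bp in Olig2+ nuclei, and that of Ctsl 296, 217 and 205 bp. Those of Cst3 (237, 214 and 230 bp) and Ctsa (234, 253 and 259 bp) differ less. The part of width in the differences was not tested.

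With an overlap of 25% the start-site peak of Ctsb and 2 start-site peaks of Ctsd joined the set. In WT, the stronger Ctsd peak was then lower in microglia than in Olig2+ nuclei (-0.77, adjusted p = 5.34e-05) and lower in NeuN+ than in Olig2+ nuclei (-1.10, adjusted p = 1.01e-06). The intervals compared differ, since the microglia peak is centred 3 bp and the nuclear peaks 123 and 130 bp from the start.

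The change between genotypes itself differed between sorts at 3 of the 7 members. At Ctsl the change was larger in microglia than in NeuN+ nuclei by 1.81 ± 0.22 (adjusted p = 6.50e-07), at Cst3 by 1.44 ± 0.24 (adjusted p = 3.91e-05) and at Ctsz by 1.37 ± 0.37 (adjusted p = 0.00383). The median difference over all shared peaks was 0.60, and 40.8% of them were called in this direction, so the members' share (3 of 7) is near this background. Relative to that median the members' differences were 1.20, 0.84 and 0.77. Against Olig2+ nuclei the microglia change was larger by 0.79 ± 0.22 at Ctsl (adjusted p = 0.0136) and 0.73 ± 0.24 at Cst3 (adjusted p = 0.0343), with a median of 0.17 and 17.6% of shared peaks called so. NeuN+ minus Olig2+ nuclei gave -1.02 ± 0.22 at Ctsl (adjusted p = 0.00180) and -0.71 ± 0.24 at Cst3 (adjusted p = 0.0298), with a median of -0.50 and 30.8% called negative. The members' share of calls between the nuclei sorts is near that background. The contrasts share libraries and are not independent of each other. After quantile normalization only the Ctsl difference between microglia and NeuN+ nuclei was called, and Ctsz was called under none of the 3 other scalings nor by edgeR.

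**Figure D5:**
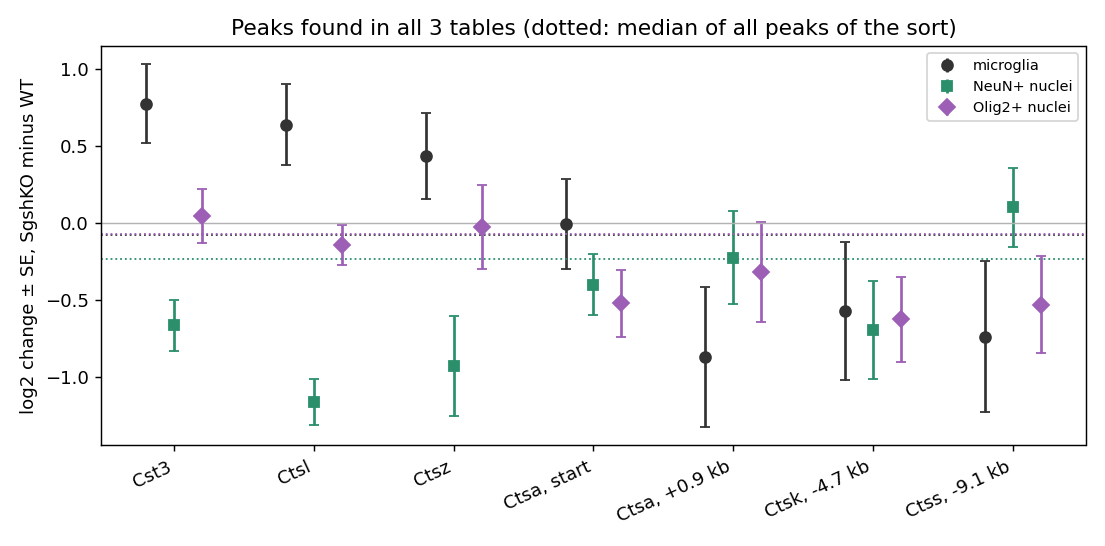
Log2 change (SgshKO minus WT, ± SE, 2 libraries a group) of the 7 member peaks found in all 3 tables, with each sort's change from the fit of its own table; dotted lines are the medians of all peaks of a sort. Cst3, Ctsl and Ctsz are positive in microglia (0.78, 0.64 and 0.44) and negative in NeuN+ nuclei (-0.67, -1.17 and -0.93), with Olig2+ nuclei between -0.14 and 0.05.

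The 1000 bp limit split few members closely. Just inside it, the Ctsa peak at 952 bp in Olig2+ nuclei had 9.85 and 9.72 against 7.99 and 7.31 tags and the microglia Ctsd peak at 945 bp 8.64 and 11.0 against 21.6 and 12.1. Just outside, the NeuN+ Ctsk peak at 1001 bp had 10.2 and 15.8 against 9.77 and 11.4 tags.

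A list of 27 other genes of lysosomal proteolysis was read in the same way: 5 cathepsins, 7 cystatins and stefins, 7 peptidases and 8 genes of enzyme delivery and activation. At start sites, 1 of 36 microglia peaks of the list was higher and 1 lower, where 8.59% of all microglia start-site peaks were higher and 1.2% lower. The former was Cpq, a carboxypeptidase, with 18.2 and 16.1 against 44.2 and 56.6 tags (1.50 ± 0.40, adjusted p = 0.0149). The latter was a peak of Nagpa, which uncovers the mannose 6-phosphate tag, with 26.8 and 28.0 against 7.79 and 12.1 tags (-1.40 ± 0.45, adjusted p = 0.0499). In NeuN+ nuclei 8 of 29 start-site peaks fell and none rose, a smaller share than the 44.9% of all start-site peaks that fell (1.74% rose), with a median of -0.42 against -0.53 over all start-site peaks. They belonged to Cstb, Scpep1, Lgmn, Dpp7, Gnptab, Sort1 and Psap (2 peaks). The largest was at Gnptab, which makes the mannose 6-phosphate tag: 127 and 125 against 51.7 and 55.9 tags (-1.22 ± 0.13, adjusted p = 5.53e-06). In Olig2+ nuclei 1 of 22 rose and 5 fell, where 12.7% of all start-site peaks rose and 7.56% fell. Sort1, a sorting receptor, rose from 104 and 95.6 to 153 and 142 tags (0.56 ± 0.12, adjusted p = 0.000975), and peaks of Ctso, Grn (2 peaks), Gnptg and M6pr fell.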

How the data were processed

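ATAC-seq of microglia, NeuN+ nuclei and Olig2+ nuclei from WT and SgshKO mice (12 libraries, 2 in each of 6 groups) was deposited as 1 peak table per sort. Bowtie2, HOMER and the genome build mm10 are named in the submitters' processing notes, without versions or roles. No source used here states how reads were shifted or how duplicates and multiply mapped reads were handled, and single-end reads limit peaks in repeated sequence. Each peak's deposited signal counts its tags, scaled per the file headers to a library total of 10000000. Dividing out the scaling gave whole reads for 100% of values, within 0.01. The deposited score of each peak runs from 540 to 1000, is the authors' own, and was not used in a test. Coordinates, nearest genes and distances are those of the deposited tables, all 12 tag columns matched a sample, and no column was left over.

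Within each table log2(tags + 1) was compared between genotypes with limma 3.58.1 in R 4.3.3 (intensity trend, two-sided, no covariate, no filter), adjusted by Benjamini-Hochberg over all peaks, called under 0.05. Fold changes are on the log2(tags + 1) scale, which understates those of low peaks. Peaks with reciprocal overlap of 50% entered 1 limma model of all libraries. As alternatives, the pseudocount was set to 0.5 and 5, the 25% of peaks with the lowest mean were dropped, tags were scaled in 3 other ways (to tags in peaks, by median of ratios, by quantiles), recovered reads were fitted with edgeR 4.0.16 and DESeq2 1.42.0, a replicate block was added, thresholds, start-site limits and the overlap (25%) were changed, and each library was left out. The fits were tested on simulated data. Named with values were, for each gene and sort, the strongest start-site and distal peaks, all called peaks and all shared peaks; other peaks given values were chosen after these were seen. The members and gene lists were chosen with earlier results of these data known.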

Additional observations from a re-analysis of the deposited data

Results flagged for a closer look

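The change between genotypes differed between sorts, by a test of the difference itself in the model of 12 libraries, at 7 combinations of member and sort pair. At the Ctsl start site the log2 difference was 1.81 for microglia minus NeuN+ nuclei, 0.79 for microglia minus Olig2+ nuclei and -1.02 for NeuN+ minus Olig2+ nuclei. At the Cst3 start site these differences were 1.44, 0.73 and -0.71. At the Ctsz start site that for microglia minus NeuN+ nuclei was 1.37. Over all shared peaks the medians of the 3 contrasts were 0.60, 0.17 and -0.50, and 40.8%, 17.6% and 30.8% of them were called in the members' direction. The share of members called was near this background for microglia minus NeuN+ nuclei and for NeuN+ minus Olig2+ nuclei. Both differences of NeuN+ minus Olig2+ nuclei lost their calls with median of ratios, quantile normalization or edgeR, and both of microglia minus Olig2+ nuclei after in-peak scaling or quantile normalization. That of Ctsz lost its call under each of these scalings and by edgeR, and that of Cst3 for microglia minus NeuN+ nuclei after quantile normalization. For microglia minus Olig2+ nuclei, Cst3 was also not called with median of ratios, by edgeR, without WT replicate 2 of microglia or without any 1 of the 4 Olig2+ libraries, and Ctsl without WT replicate 2 of microglia or replicate 1 of either Olig2+ group. For NeuN+ minus Olig2+ nuclei, Cst3 was also not called after in-peak scaling, or without WT replicate 1 or an SgshKO library of either sort. The adjusted p, from limma, ranged from 6.50e-07 to 0.0343. In microglia both SgshKO libraries lay above both WT libraries at all 3 start sites, and in NeuN+ nuclei both lay below; over all start-site peaks 57.8% in microglia and 77.8% in NeuN+ nuclei did not overlap in either direction. The summed start-site level of the neuronal markers in NeuN+ nuclei also lay lower in SgshKO (507 and 523 tags against 983 and 906), as did that of each other marker set in this sort. The part of these levels in the differences between sorts was not tested.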

How the results depend on the processing

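In microglia the number of called members, 5 as reported, was 8 with a pseudocount of 5, 12 after in-peak scaling, 16 with median of ratios, 13 after quantile normalization, 19 by edgeR, 18 with the replicate block, 1 at an adjusted p under 0.01 and 11 under 0.10, and 0 to 22 without single libraries. NeuN+ calls went from 8 to 5 without the lowest 25% of peaks and 3 by DESeq2, and to 0 to 5 without single libraries; they split 7 higher and 3 lower after in-peak scaling and 4 and 4 with median of ratios. Olig2+ calls went from 5 to 2 without the lowest 25%, 1 by DESeq2 (which gave the other 4 no adjusted p) and 3 under 0.01, and to 1 to 7 without single libraries. The replicate block left the NeuN+ and Olig2+ counts at 8 and 5. Calls over the whole table moved as well. In microglia they were 6765 as reported, 8303 with a pseudocount of 5 and 14522 after in-peak scaling. They were 11972 with median of ratios, 10484 after quantile normalization, 14132 by edgeR and 14489 with the replicate block. NeuN+ calls over the whole table went from 32105 to 25812 without the lowest 25% and 4900 by DESeq2. Those of Olig2+ nuclei went from 16370 to 13346 and 3589. Same-numbered libraries deviated together with correlations of 0.042, 0.0036 and 0.00069 only, so the numbers were not taken as pairs. The cause of these shifts was not tested.

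For shared peaks, the WT difference between nuclei sorts (1 call) gave 2 with a pseudocount of 5, quantile normalization, the replicate block or 0.10, 3 at an overlap of 25%, and 1 to 2 without single libraries. The genotype difference between microglia and NeuN+ nuclei (3) gave 1 after quantile normalization and 5 at 25%. That between microglia and Olig2+ nuclei (2) gave 0 after in-peak scaling, quantile normalization or under 0.01, 1 with median of ratios or edgeR, and 0 to 2 without single libraries. That between the nuclei sorts (2) gave 1 after in-peak scaling or under 0.01, 0 with median of ratios, quantile normalization or edgeR, and 1 to 3 without single libraries.

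Signs turned only in changes that were not called, apart from the WT difference of the second Ctsa peak (-0.073 after in-peak scaling). In microglia these were Ctsa at 6 bp (0.049 median of ratios, 0.044 edgeR, 0.052 DESeq2), Ctsb at 126 bp (-0.038 in-peak, -0.12 quantile) and 6746 bp (-0.22 quantile), Ctsh at -20166 bp (-0.063 quantile) and 223 bp (-0.12 in-peak, -0.32 quantile), Ctsl at -5318 bp (-0.052 in-peak) and Ctsz at 1227 bp (-0.024 in-peak, -0.23 quantile). In NeuN+ nuclei they were Ctsa at 915 bp (0.048), Ctsc at -304653 bp (0.019) and Ctsk at 1001 bp (0.029), all in-peak, and Ctsd at -130 bp (0.13 in-peak, 0.052 median of ratios, 0.38 quantile, 0.053 edgeR, 0.051 DESeq2). In Olig2+ nuclei it was Ctsz at 41 bp (0.039 median of ratios, 0.034 quantile, 0.055 edgeR). Leaving out single libraries also turned signs, with ranges from -0.078 to 0.065 for Ctsa at 6 bp, -0.052 to 0.39 for Ctsb at 126 bp, -0.35 to 0.14 for Ctsc at -75918 bp, -0.021 to 0.67 and -0.016 to 0.19 for Ctsh at -20166 and 223 bp, and -0.16 to 0.45 for Ctsl at -5318 bp in microglia. In NeuN+ nuclei the ranges were -0.54 to 0.085 (Ctsa at 915 bp), -0.58 to 0.060 (Ctsc at -304653 bp), -0.54 to 0.047 (Ctsk at 1001 bp), -0.15 to 0.16 (Ctsl at 26705 bp) and -0.042 to 0.25 (Ctss at -9117 bp). In Olig2+ nuclei they were -0.051 to 0.14 (Cst3 at -18 bp), -0.50 to 0.070 (Ctsb at 8380 bp), -0.079 to 0.33 (Ctsh at -46838 bp), -0.23 to 0.035 (Ctsk at 3269 bp) and -0.20 to 0.15 (Ctsz at 41 bp). Under the settings that kept all libraries, 503 values of named peaks kept sign and call, 27 gained a call, 14 lost one and 23 turned sign. Without single libraries 21 values turned sign, and calls were lost and gained as well. Median reads per peak of 17 to 39 limit what weak peaks can show.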

Other observations

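Among the delivery and activation genes, the distal peaks of Psap, the precursor of the saposins that help lysosomal enzymes reach sphingolipids, included 10 of 27 called by limma in Olig2+ nuclei, all lower in SgshKO, with a median log2 change of -0.58, against 13% of all distal Olig2+ peaks called lower. The summed start-site level of the oligodendrocyte markers was also lower there (2619 and 2636 tags against 3282 and 3236), and that of the neuronal markers higher (454 and 435 against 379 and 415). The part of either was not tested. The strongest called peak, 15080 bp upstream on chromosome 10 (60262412 to 60262684), had 225 and 233 tags in WT and 168 and 164 in SgshKO (-0.46 ± 0.09, adjusted p = 0.000744). The other called peaks, on both sides of the start, fell further. The peak 7686 bp upstream went from 13.5 and 13.3 to 4.30 and 4.65 tags (-1.40 ± 0.34, adjusted p = 0.00408). The peak 11151 bp downstream went from 61.2 and 63.4 to 26.4 and 31.9 tags (-1.07 ± 0.18, adjusted p = 9.50e-05). The single Psap start-site peak of that sort had a change of 0.14 and was not called. In microglia 1 of 32 distal Psap peaks rose, 24823 bp upstream, from 240.3 and 224 to 530 and 360.2 tags (0.91 ± 0.26, adjusted p = 0.0265), and 2 fell, near the 3.8% and 2.72% of all distal microglia peaks. Psap was singled out after its values were seen.

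Lgmn, the asparagine-specific lysosomal endopeptidase legumain, had 52 distal peaks in microglia, of which 1 rose and 3 fell, near the same background of 3.8% and 2.72%. The 3 that fell lie next to each other, 48921 to 49578 bp from the Lgmn start, with the strongest going from 115 and 83.0 to 51.9 and 38.1 tags (-1.12 ± 0.34, adjusted p = 0.0328). The peak that rose, 13941 bp on the other side, went from 47.5 and 42.4 to 102 and 86.3 tags (1.05 ± 0.33, adjusted p = 0.0432). The strip near 49 kb also held the 1 of 6 distal Lgmn peaks that fell in NeuN+ nuclei (18.1 and 26.5 against 13.3 and 12.1 tags), where 12.6% of all distal peaks fell. In Olig2+ nuclei 1 of 10 rose, at 20067 bp, and 2 fell, at 1750 and 47620 bp. Over all distal Olig2+ peaks 6.7% rose and 13% fell. Lgmn was likewise chosen after its values were seen.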
